A study of Mus musculus with 36 samples.

Results

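A set of 7 secreted or cell-surface factors through which osteoblasts act on osteoclasts were followed: Tnfsf11 (RANKL), Tnfrsf11b (osteoprotegerin), Csf1 (M-CSF), Il34 (interleukin 34), Sema3a (semaphorin 3A), Efnb2 (ephrin-B2) and Ephb4 (its receptor EphB4). They were taken by symbol, as 7 of 30205 genes summed from the deposited transcript values, and all 7 were present in the tables. The study set mice lacking Mir324 (labelled Mir324-null) against wild-type controls in 36 bulk RNA-seq libraries, 6 for each genotype in each of 3 cultures, with cells taken from long bones of mice aged 20 weeks. Bone marrow macrophages (BMM) received 30 ng/mL M-CSF for 5 days. The cultures labelled osteoclasts (OC) received RANK-L at 50 ng/mL beside the same M-CSF dose of 30 ng/mL, also for 5 days. Osteoblasts (OB) were grown out of collagenase-treated bone chips and then kept for 18 days in medium with β-glycerophosphate and ascorbic acid. The Mir324 genotype is the only difference that the labels list between null and control groups of the same culture. Whether anything else differed, such as batch, is not given. How the allele was made and whether replicates came from separate animals are not given in the sources used here, so the p-values measure the spread between these libraries, which may be technical.

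Bone is remodelled by osteoclasts, which form from macrophage precursors, and by osteoblasts, which lay down matrix. RANKL on osteoblast-lineage cells binds the receptor RANK on precursors and drives osteoclast formation, and osteoprotegerin is a soluble decoy receptor that takes RANKL away. M-CSF and interleukin 34 both act through the receptor CSF1R to keep the precursors alive and dividing. Semaphorin 3A restrains osteoclast formation, and ephrin-B2 with EphB4 signals in both directions between cells that touch.

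The deleted gene encodes a hairpin on the plus strand of chromosome 11 that yields a pair of mature microRNAs, at chr11:70012060-70012082 and chr11:70012095-70012114 (RefSeq, GRCm38.p6). Their sequences are shown because the bases in capitals, the seed at positions 2 to 8, set which transcripts they can pair with, and the arms have different seeds.
miR-324-5p: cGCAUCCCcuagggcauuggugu
miR-324-3p: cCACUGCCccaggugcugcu
The seed-matched letters are GGGATGC for the 5p arm and GGCAGTG for the 3p arm. They were searched on the transcript strand in 20787 genes, 1 annotated 3′ UTR (the longest) per gene, (GENCODE M21, GRCm38). GGGATGC was found in 8.3% of those UTRs and GGCAGTG in 14.2%. Among the 7 factors, Efnb2 held 1 match to each arm and Sema3a held 1 match to the 5p arm. Windows of 29 bases around the matches are drawn with the match in capitals. The windows lie at chr8:8619874-8619902 and chr8:8617745-8617773 (minus strand, Efnb2) and at chr5:13601503-13601531 (plus strand, Sema3a).
Efnb2, 5p match: ggagcatagtaGGGATGCaggaaggaaat
Efnb2, 3p match: gcttgtttaacGGCAGTGtcatccccttt
Sema3a, 5p match: tgagagaaagaGGGATGCtccaaataagc
Neither motif occurred in the UTRs searched for Tnfsf11, Tnfrsf11b, Csf1, Il34 or Ephb4. For Il34 and Ephb4 these belong to Il34-204 and Ephb4-202, which are not the main transcripts in osteoblast cultures. The UTRs of their main transcripts were not searched. A match is only a run of letters and is no measure of pairing.

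Libraries held 14118972 to 26347581 estimated counts. The osteoblast markers were all detected in OB libraries, where they summed to 54064 to 78187 CPM (counts relative to scaled library totals) in wild type and 96312 to 115900 CPM in null. Of these 10 markers, 4 were called higher in null OB by the test described below and 6 were not called. Macrophage markers were also present in OB libraries, at 15428 to 18992 CPM in wild type and 8192 to 11730 CPM in null, and of the osteocyte markers Sost was at 0 in both. In the null cultures labelled osteoclasts, the osteoclast markers summed to 424 to 773 CPM, with Calcr at 0, against 30441 to 32646 CPM in wild type. Macrophage markers there were at 52007 to 62723 CPM against 13221 to 15882 CPM. The null OC libraries are therefore called by their label and not as osteoclasts, and whether they stand apart through the genotype or through the culture or its labelling cannot be told apart from these data. The part of these marker differences in any result below was not tested, and in bulk RNA fewer cells of a type and less RNA per cell cannot be told apart.

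In wild-type cells the 7 factors were osteoblast-culture transcripts, with Efnb2 shared with the RANK-L cultures. All 7 were higher in wild-type OB than in wild-type BMM, where 42.9% of the 13373 genes tested were higher. Against wild-type OC, 6 of 7 were higher, where 45.1% of 13462 genes were. Both comparisons share the wild-type OB libraries. Against BMM every factor but Csf1, and against OC Tnfsf11, Tnfrsf11b, Sema3a and Ephb4, passed the filter on low counts only through OB, so they had to be higher there and the counts are descriptions. Calls rest on an adjusted p under 0.05 in the quasi-likelihood F test of edgeR.

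Per length of transcript (TPM, the deposited length-corrected value), Csf1 was the most abundant of the 7 in wild-type OB, at 140 to 186 TPM with a median of 169. Tnfrsf11b followed at 60.6 to 83.9 TPM, and the ranges of these genes did not overlap. Tnfsf11 (11.5 to 26.3 TPM), Il34 (14.4 to 20.8 TPM) and Sema3a (10.6 to 19.6 TPM) overlapped one another. Ephb4 lay lower at 5.24 to 8.36 TPM, and Efnb2 was lowest at 1.10 to 1.43 TPM. The order of the 7 medians was the same in null OB, with Csf1 at a median of 230, Tnfrsf11b at 94.5, Ephb4 at 8.57 and Efnb2 at 1.72 TPM.

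**Figure D1:**
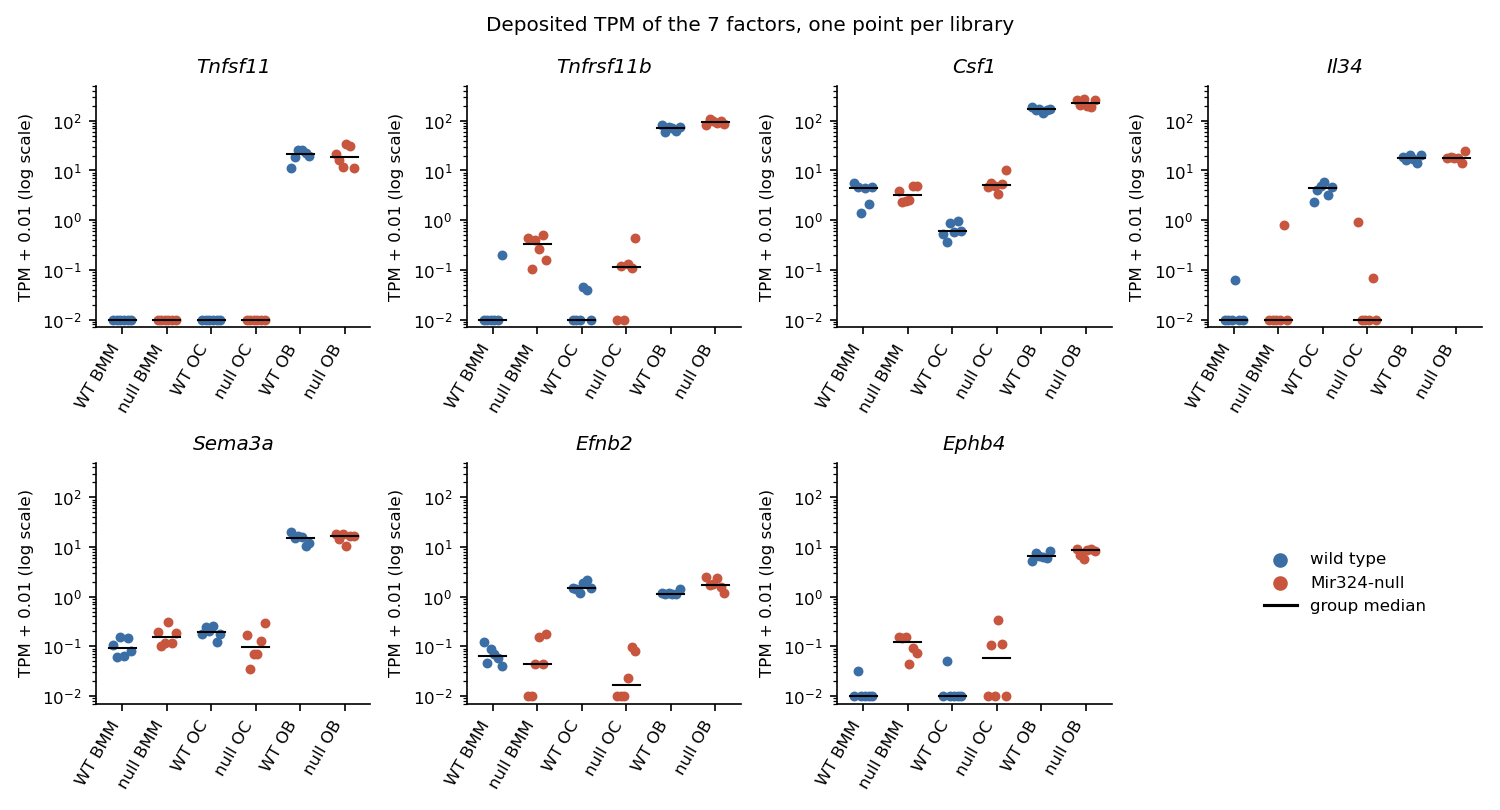
TPM of each factor in each library on a log axis after adding 0.01 TPM, by group, with wild type in blue, null in red and a line at the group median. Tnfsf11 stands at the bottom of the axis in all 24 BMM and OC libraries, whereas Efnb2 in wild-type OC (1.16 to 2.12 TPM) reaches its level in osteoblast cultures.

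Tnfsf11 was at 0 counts in all 24 BMM and OC libraries. Taking 3 counts in a library as the floor, which covers counting error only, its mean of 29.6 CPM in wild-type OB was at least 170-fold higher than in wild-type BMM and at least 177-fold higher than in wild-type OC. Tnfrsf11b had 0 counts in 5 of 6 wild-type BMM libraries and 8 in the sixth, and its mean of 130 CPM in wild-type OB was at least 778-fold higher than in wild-type OC, where no library passed 1 count. Ephb4 in wild-type OB, at a mean of 18.4 CPM, was at least 106-fold higher than in wild-type BMM and at least 110-fold higher than in wild-type OC.

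Csf1 was detected in every library of every group. The wild-type BMM libraries had 1.40 to 5.53 TPM and the wild-type OC libraries 0.354 to 0.950 TPM, ranges that did not overlap. Wild-type OB exceeded wild-type BMM by 5.35 on the log2 scale (SE 0.26, adjusted p = 8.77e-10, edgeR) and wild-type OC by 8.27 (SE 0.12, adjusted p = 6.25e-20, edgeR). Sema3a was higher in wild-type OB by 7.77 (SE 0.18, adjusted p = 6.27e-17, edgeR) and 6.35 log2 units (SE 0.15, adjusted p = 2.95e-17, edgeR). The BMM and OC libraries of wild type held no more than 15.0 estimated counts of Sema3a each.

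The other ligand of CSF1R, Il34, had 0 or 1 count in each wild-type BMM library and 44.1 to 91.0 counts in each wild-type OC library. It was higher still in wild-type OB, by 2.25 log2 units over wild-type OC (SE 0.14, adjusted p = 2.99e-11, edgeR). Efnb2 had 2 to 6 counts in wild-type BMM, 70 to 101 in wild-type OC and 56 to 82 in wild-type OB. Its level in wild-type OB was 4.22 log2 units above wild-type BMM (SE 0.25, adjusted p = 4.16e-11, edgeR). Against wild-type OC the difference was -0.26 (95% interval -0.55 to 0.04, adjusted p = 0.0958, edgeR), and it passed the threshold on log2(TPM + 0.1) at -0.38 (limma, adjusted p = 0.0269) and without wild-type OC replicate 3 at -0.34 (edgeR, adjusted p = 0.028).

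Between null and wild-type OB, Csf1 was the only one of the 7 factors that passed the test, and it was higher in null. Among the 13607 genes tested, 32.5% passed, 15.5% higher and 16.9% lower, so 1 of 7 is no larger a share than the background. The median log2 difference of the 7 was 0.08, beside 0.002 over all genes tested. The differences of all 7 lay between -0.19 and 0.41 on the log2 scale.

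Wild-type OB libraries had 295 to 400 CPM of Csf1 with a median of 350, and null OB libraries had 357 to 508 CPM with a median of 440. The groups overlapped on this scale: null replicates 5 and 4, at 357 and 380 CPM, lay below wild-type replicate 1. In TPM the groups did not overlap, with 188 to 271 TPM in null against 140 to 186 TPM. On log2(TPM + 0.1), though, the median of all genes tested was itself 0.17 higher in null. The difference was 0.30 log2 units (SE 0.09, 95% interval 0.11 to 0.50, adjusted p = 0.018, edgeR), a 1.23-fold higher level. With an offset for the trend of each library with transcript length and GC content the difference was 0.21 (adjusted p = 0.119, edgeR). With that offset and the replicate number as a block it was 0.205 (adjusted p = 0.053, edgeR), and in a fit of all 36 libraries 0.31 (adjusted p = 0.253, edgeR). The call was lost in all of these. Across the 13607 genes the null-to-wild-type difference followed transcript length, with a Spearman rho of 0.549 (genes are not independent replicates), and the 500 genes nearest Csf1 in length had a median difference of 0.10.

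The other CSF1R ligand did not pass the test. Il34 had 12.1 to 16.9 CPM with a median of 15.1 in wild-type OB and 9.80 to 17.4 CPM with a median of 12.9 in null OB. The groups overlapped, and null replicate 6 was the highest of all 12 libraries. The difference was -0.19 (95% interval -0.46 to 0.07, adjusted p = 0.257, edgeR), and on log2(TPM + 0.1) it was 0.026 (limma, adjusted p = 0.887). The 500 genes nearest Il34 in length had a median difference of -0.155, below the 0.10 of those nearest Csf1. The part of the length trend in the contrast between these ligands was not tested. The ratio of Csf1 to Il34 in TPM ran from 8.10 to 11.5 in wild type and from 10.8 to 14.9 in null.

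For RANKL the spread between libraries was wide. Tnfsf11 had 16.2 to 37.8 CPM with a median of 29.9 in wild-type OB and 13.5 to 41.9 CPM with a median of 23.8 in null OB. The null group held both the highest libraries (replicates 4 and 5, at 41.9 and 38.5 CPM) and the lowest (replicates 6 and 3, at 13.5 and 14.6 CPM). Wild-type replicate 1, at 16.2 CPM, stood below the other 5 wild-type libraries, which began at 26.8 CPM. The difference was -0.19 (SE 0.31, adjusted p = 0.689, edgeR), and its 95% interval of -0.87 to 0.49 leaves room for either direction.

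Osteoprotegerin was less variable. Tnfrsf11b had 110 to 152 CPM with a median of 133 in wild-type OB and 130 to 180 CPM with a median of 151 in null OB, and the groups overlapped. The difference was 0.21 (95% interval 0.02 to 0.40, adjusted p = 0.088, edgeR), short of the threshold after adjustment. It passed on log2(TPM + 0.1), at 0.40 (limma, adjusted p = 0.00339), and without wild-type OB replicate 1, at 0.26 (edgeR, adjusted p = 0.0354). On the TPM scale the median of all genes shifted by 0.17, and 4073 of 5032 called genes were higher in null, against 2115 of 4420 in the count test.

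The ratio of RANKL to osteoprotegerin transcripts is often read as a summary of how far osteoblasts favour osteoclast formation. In TPM it was 0.136, 0.313, 0.356, 0.363, 0.364 and 0.259 in wild-type OB replicates 1 to 6, a mean of 0.299 ± 0.0893 (SD, n = 6). In null OB replicates 1 to 6 it was 0.261, 0.152, 0.121, 0.366, 0.311 and 0.128, a mean of 0.223 ± 0.104 (SD, n = 6). Tnfsf11 was thus below Tnfrsf11b in all 12 libraries. The groups overlapped over nearly their whole range, with the highest value and 2 of the lowest 3 in null. The mean log2 ratio differed by -0.48, null minus wild type (SE 0.36), with p = 0.19 in an exact two-sided permutation test over 924 assignments, whose smallest possible p is 0.00216. Leaving out single libraries moved the difference between -0.69 and -0.33, and leaving out wild-type replicate 1 gave the former.

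**Figure D2:**
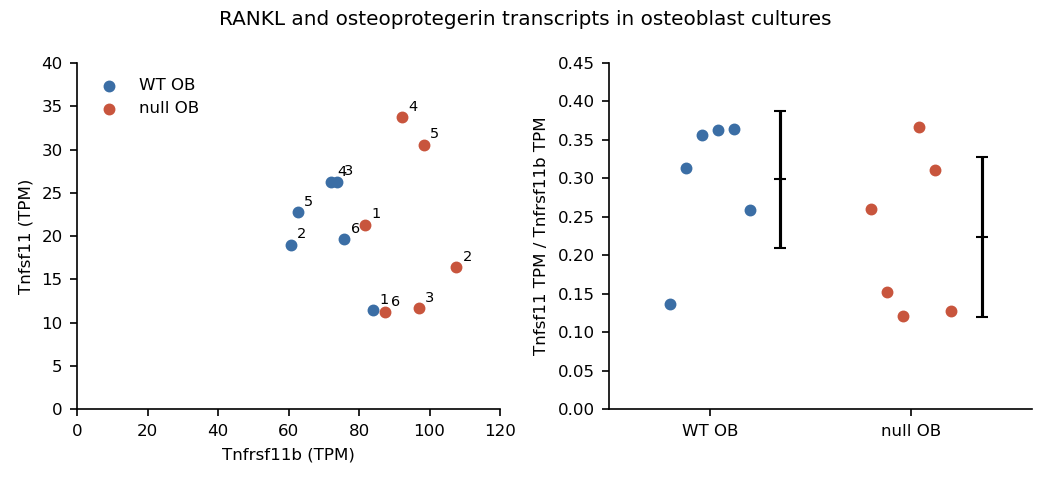
Left, Tnfsf11 against Tnfrsf11b in TPM for each of the 12 osteoblast-culture libraries, numbered by replicate, with wild type in blue and null in red. Right, the ratio of Tnfsf11 to Tnfrsf11b per library with the mean and SD of 6 libraries in black; the ratios span 0.136 to 0.364 in wild type and 0.121 to 0.366 in null, and the groups overlap.

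The 3 libraries lowest in Tnfsf11 included the 2 highest in Csf1. These were null OB replicates 3 and 6, at 508 and 482 CPM of Csf1, while the other, wild-type OB replicate 1, had the highest Csf1 of its group (400 CPM). The order was not strict: null OB replicate 1 had 476 CPM of Csf1 with 26.3 CPM of Tnfsf11. Over the 12 OB libraries the Spearman rho between Tnfsf11 and Csf1 was -0.69, given as a description since the libraries share genotype groups and culture. Among the 20 other pairs of factors rho lay between -0.51 and 0.53.

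Semaphorin 3A, with a match to the 5p seed in its longest UTR (transcript Sema3a-201), had 34.7 to 49.8 CPM with a median of 45.01 in wild-type OB and 29.0 to 49.6 CPM with a median of 40.2 in null OB. The groups overlapped along almost their whole length. The difference was -0.12 (95% interval -0.42 to 0.17, adjusted p = 0.522, edgeR), and on log2(TPM + 0.1) it changed sign to 0.09 (limma, adjusted p = 0.693).

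Efnb2, which holds a match to each arm, had 3.15, 3.22, 3.24, 3.28, 3.34 and 4.03 CPM in the wild-type OB libraries, in rising order, and 2.90 to 6.15 CPM with a median of 4.45 in null OB. In null, 4 libraries lay above every wild-type library, and replicate 6 lay below all of them. At 56 to 126 counts in a library it was also the least deeply counted of the 7. The difference was 0.41 (SE 0.17, 95% interval 0.06 to 0.76, adjusted p = 0.0721, edgeR). It passed the threshold with voom at 0.44 (adjusted p = 0.0429), on log2(TPM + 0.1) at 0.56 (limma, adjusted p = 0.0217) and without null OB replicate 6 at 0.51 (edgeR, adjusted p = 0.0142), and was 0.20 with the length and GC offset and the replicate number as a block (edgeR, adjusted p = 0.498).

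The receptor Ephb4 had 14.5 to 22.3 CPM with a median of 17.6 in wild-type OB and 14.1 to 22.1 CPM with a median of 20.6 in null OB. These ranges coincided almost exactly. The difference was 0.08 (95% interval -0.18 to 0.34, adjusted p = 0.667, edgeR), and with the length and GC offset it changed sign to -0.12 (adjusted p = 0.484, edgeR). The ratio of Efnb2 to Ephb4 in TPM was 0.145 to 0.223 in wild type and 0.142 to 0.303 in null.

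**Figure D3:**
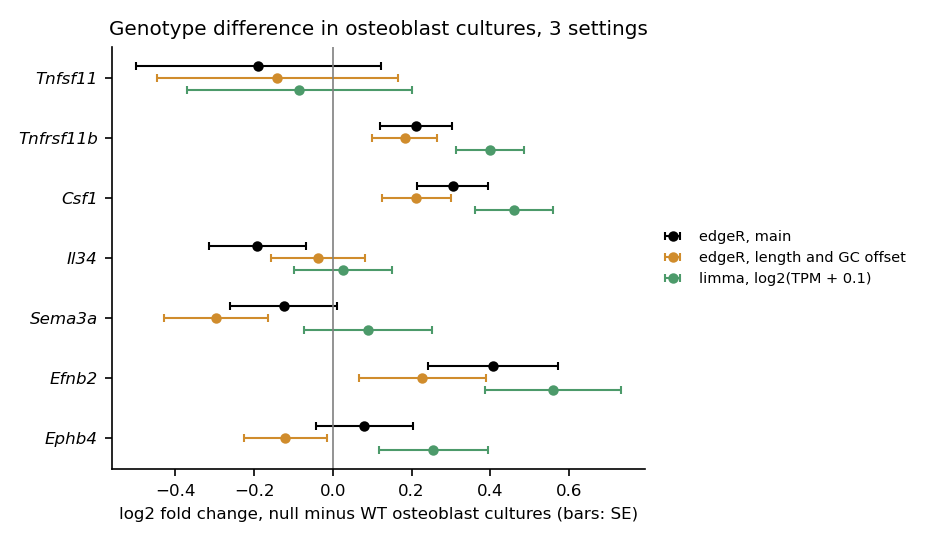
Null minus wild-type log2 difference in osteoblast cultures for each factor, with bars of 1 SE, under the edgeR test (black), the same with the offset for length and GC (orange) and limma on log2(TPM + 0.1) (green). Csf1 is above 0 in all 3 (0.30, 0.21 and 0.46), whereas Il34, Sema3a and Ephb4 change sign between them.

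Of the factors, 4 are listed with more than 1 well-expressed transcript in osteoblast cultures. Csf1 is spliced into a long coding form, made as a secreted growth factor or proteoglycan, and a shorter form that stays at the cell surface. In wild-type OB, Csf1-201 (1656 coding bases and a 3′ UTR of 2111 bases) made up 44.7% ± 3.00 (SD, n = 6) of Csf1 TPM, and Csf1-203, with the same coding length and a UTR of 259 bases, made up 28.3% ± 2.30 (SD, n = 6). Csf1-202, with 771 coding bases, made up 24.3% ± 2.00 (SD, n = 6). In null OB the shares were 48.3% ± 0.796, 26.1% ± 1.20 and 22.6% ± 1.72 (SD, n = 6 each), and for each transcript the ranges of the genotypes overlapped. The mean TPM of all 3 transcripts was higher in null, at 111, 60.1 and 52.1 TPM against 74.8, 47.1 and 40.4 TPM. The shift of all genes toward null on the TPM scale, with a median of 0.17, applies here too.

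Sema3a was divided nearly evenly between Sema3a-202 (44.3% in wild-type OB, 45.1% in null OB) and Sema3a-201 (40.9% and 38.5%), which have the same coding length. The match to the 5p seed lies at base 1911 of the 2962-base UTR of Sema3a-201. The UTR of Sema3a-202 has 1385 bases and was not searched. Il34 came mainly from the coding transcript Il34-201, at 60.2% in wild type and 56.3% in null, and Il34-205, a transcript annotated as non-coding, took 24.7% and 26.5%. Ephb4-201 made up 60.6% and 58.0% of Ephb4, with 3 further coding transcripts below it. Of these, Ephb4-202 had the largest mean share in wild type and the smallest in null, and its ranges in the genotypes overlapped. Tnfsf11 and Tnfrsf11b are each listed with 1 transcript. These shares are estimates that divide reads among overlapping transcripts, and they were not tested.

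**Figure D4:**
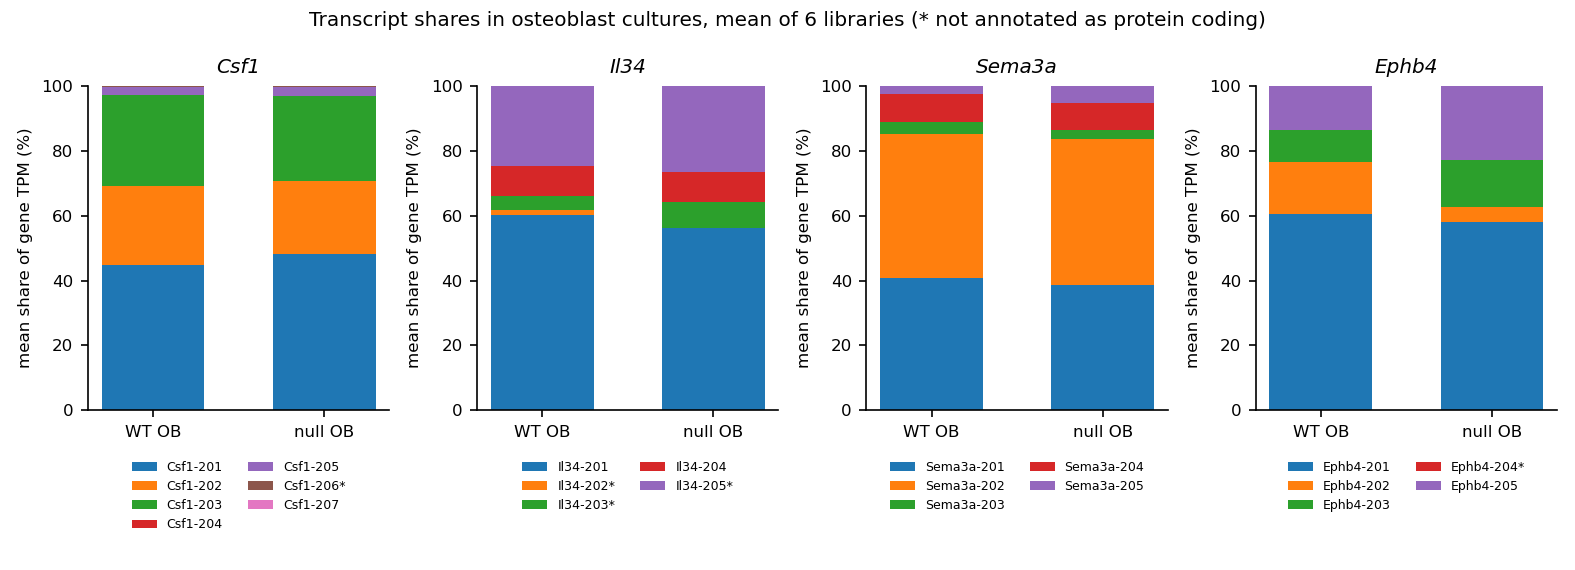
Mean share of each gene's TPM taken by each of its transcripts in wild-type and null osteoblast cultures, over 6 libraries each, with an asterisk on transcripts not annotated as protein coding. The largest share of each gene falls to the same transcript in both genotypes, with Csf1-201 at 44.7% and 48.3%. The order of smaller shares differs for Ephb4 and Sema3a. Ephb4-202 lies above Ephb4-205 and Ephb4-203 in wild type and below both in null, and Sema3a-203 and Sema3a-205 change places.

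In the macrophage cultures only Csf1 had enough counts for the genotype test. It had 3.16 to 12.5 CPM with a median of 9.82 in wild-type BMM and 5.52 to 11.3 CPM with a median of 7.79 in null BMM, and the groups overlapped. The difference was -0.10 (95% interval -0.72 to 0.52, adjusted p = 0.789, edgeR), where 52.3% of 11925 genes passed. In a test of the difference itself, the genotype effect on Csf1 in OB minus that in BMM was 0.42 (95% interval -0.21 to 1.05, adjusted p = 0.272, edgeR).

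Tnfrsf11b and Ephb4 were near the floor in macrophages yet had counts in each null BMM library, 4 to 18 for Tnfrsf11b and 2 to 8 for Ephb4. The wild-type BMM libraries had 0 apart from 1 library with 8 counts of Tnfrsf11b and 1 library with 1 count of Ephb4. The osteoblast markers summed to 53.3 to 127 CPM in null BMM and 10.3 to 27.6 CPM in wild-type BMM, and their part in these counts was not tested. Tnfsf11 was at 0 in both groups. Between OB and BMM the genotype effect passed the test of the difference for 3 of the 7 factors, all lower in OB, where 46.8% of 14004 genes passed. These were Tnfrsf11b (-2.80, SE 0.64, adjusted p = 0.000892, edgeR), Ephb4 (-4.17, SE 0.68, adjusted p = 1.74e-05, edgeR) and Sema3a (-1.11, SE 0.43, adjusted p = 0.0346, edgeR). The macrophage side of all 3 rests on the few counts just given and, for Sema3a, on 2.01 to 5.01 counts in wild type and 3.04 to 15.1 in null. Sema3a lost its call without any one of wild-type BMM replicates 2, 4 and 6 or null BMM replicates 1 and 4 (adjusted p up to 0.143, edgeR), with voom (adjusted p = 0.185) and on log2(TPM + 0.1) (adjusted p = 0.333, limma). All factors but Csf1 passed the low-count filter in this comparison only through OB, so nothing is read from the count.

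In the RANK-L cultures the genotypes differed for all 3 factors that could be tested. Among 12121 genes, 65.6% passed there, 32.4% higher and 33.1% lower, so a call by itself sets no gene apart. Csf1 was higher in the null libraries, and Efnb2 and Il34 were close to absent from them. Efnb2 and Il34 passed the filter on low counts only through wild type, so they had to be lower in null, and nothing is read from the count of 3. The remaining 4 factors were too low in both genotypes to enter the test.

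Csf1 had 0.645 to 1.39 CPM with a median of 1.32 in wild-type OC (13 to 30 counts) and 9.02 to 22.8 CPM with a median of 11.4 in null OC (156 to 304 counts). The groups were far apart. The difference was 3.45 log2 units (SE 0.25, adjusted p = 3.3e-09, edgeR), higher in 6 of 6 null libraries than in any wild-type library. Without null OC replicate 6, the highest, it was smallest among the leave-outs at 3.21. That library also had the highest sum of osteoblast markers, 268 CPM, while the other null OC libraries had 56.1 to 103 CPM and 9.02 to 12.4 CPM of Csf1.

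Efnb2 had 3.11 to 5.19 CPM with a median of 4.09 in wild-type OC, from 70 to 101 counts. The null OC libraries had 0 to 4 counts, and 3 of them had none. The difference was -5.69 (SE 0.49, adjusted p = 2.23e-08, edgeR). Il34 had 2.31 to 4.04 CPM with a median of 3.43 in wild-type OC, while 4 null OC libraries had no count and the others 4 and 1. The difference was -5.95 (SE 0.51, adjusted p = 2.45e-08, edgeR). At so few counts the fitted size depends on the method, and on log2(TPM + 0.1) the differences were -3.75 for Efnb2 and -4.68 for Il34 (limma).

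**Figure D5:**
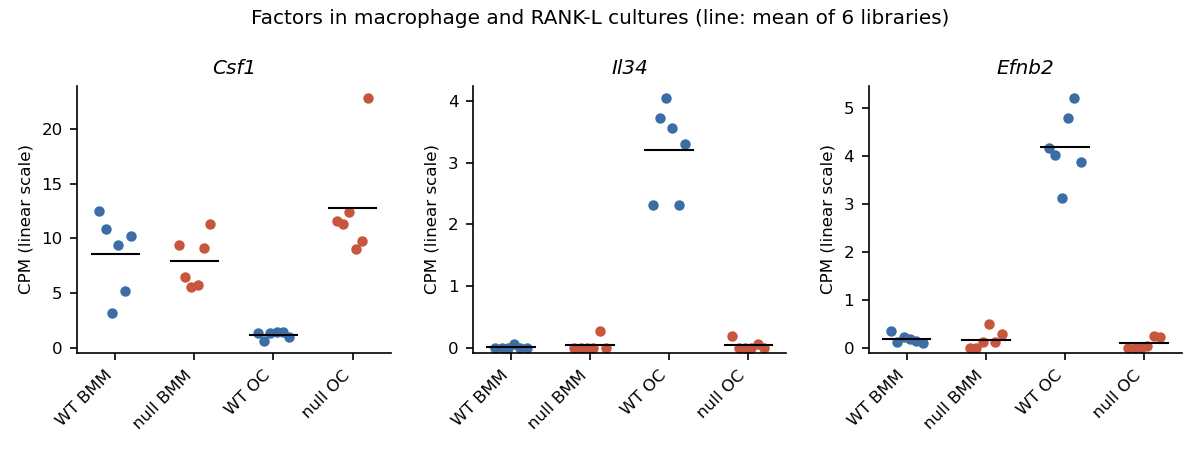
CPM of Csf1, Il34 and Efnb2 in each macrophage (BMM) and RANK-L (OC) library on linear axes, with wild type in blue, null in red and a line at the mean of 6 libraries. The wild-type OC libraries stand apart from the other groups in all 3 panels: Csf1 is at 0.645 to 1.39 CPM, and Il34 and Efnb2 are at 2.31 to 4.04 and 3.11 to 5.19 CPM.

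In wild type the same 3 factors also differed between RANK-L and macrophage cultures, with Csf1 lower and Efnb2 and Il34 higher under RANK-L. Over the 24 BMM and OC libraries, Csf1 was 2.86 log2 units lower in wild-type OC than in wild-type BMM (SE 0.31, adjusted p = 9.91e-09, edgeR) and Efnb2 was 4.52 higher (SE 0.52, adjusted p = 1.61e-08, edgeR), in a comparison where 60.5% of 12661 genes passed. Il34, at a mean of 3.21 CPM in wild-type OC, was at least 18.4-fold higher than in wild-type BMM. Efnb2 and Il34 passed the filter on low counts only through wild-type OC, so they had to be higher there and the count of 3 is a description. In the null cultures 12.9% of the genes, 1628 of 12661, passed between OC and BMM, and none of these 3 factors did. That count ran from 810 to 2143 without single libraries and was 236 of 11944 in a fit of the 12 null libraries alone. Csf1 there was 0.69 higher (SE 0.27, adjusted p = 0.0844, edgeR), and it passed without null BMM replicate 6, at 0.82 (adjusted p = 0.0455, edgeR), and in a fit of all 36 libraries, at 0.68 (adjusted p = 0.0451, edgeR). Efnb2 had 0 to 10 counts in null BMM and Il34 0 to 5, and each had 0 to 4 in null OC. Both were thus near the floor in both null groups, and nothing is read from their missing calls. The 3 comparisons share libraries, and these were chosen after the data had been seen.

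The difference in genotype effect between RANK-L and macrophage cultures was 3.56 for Csf1 (SE 0.41, adjusted p = 4.95e-08, edgeR), where 51.4% of genes passed. It was -5.62 for Efnb2 (SE 0.94, adjusted p = 1.32e-05, edgeR) and -7.71 for Il34 (SE 1.64, adjusted p = 0.000271, edgeR), each resting on at most 10 counts in every library outside wild-type OC. Efnb2 and Il34 passed the filter on low counts only through wild-type OC, so nothing is read from their calls. Without null BMM replicate 5 the value for Il34 was -4.73 and the call was lost (adjusted p = 0.918, edgeR). Between OB and OC the genotype effect passed for 6 of the 7 factors, 3 higher and 3 lower in OB, where 56.3% of 14062 genes passed. The effect in OB minus that in OC was -3.17 for Csf1 (SE 0.27, adjusted p = 3.18e-10, edgeR), 6.06 for Efnb2 (SE 0.47, adjusted p = 2.18e-11, edgeR) and 5.72 for Il34 (SE 0.45, adjusted p = 2.7e-11, edgeR). The null OC side of Efnb2 and Il34 was near the floor, at 0 to 4 counts. Among the other settings their values fell as low as 4.31 and 4.70. For the other 3 factors both genotypes were near the floor in OC. No OC library held more than 12 counts of Tnfrsf11b, 26 of Ephb4 or 15.0 of Sema3a, and these 3 passed the filter only through OB. Their values were -3.18 for Tnfrsf11b (SE 0.94, adjusted p = 0.00587, edgeR), -3.73 for Ephb4 (SE 1.09, adjusted p = 0.00528, edgeR) and 1.11 for Sema3a (SE 0.38, adjusted p = 0.0152, edgeR). On log2(TPM + 0.1) all 3 calls were lost (-0.41, -0.35 and 0.58), that of Sema3a also with voom and with the length and GC offset (adjusted p = 0.125 and 0.0676), and that of Ephb4 without null OC replicate 4 (-2.24, adjusted p = 0.0591, edgeR).

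The receptors and binding partners of the 7 factors numbered 14, of which 13 could be tested in OB. In null OB 5 were higher and none lower, where 15.5% of all genes were higher and 16.9% lower, with a median log2 difference of 0.18 beside 0.002 over all genes. With the length and GC offset 1 was higher and 2 lower and the median was -0.08, and on log2(TPM + 0.1) 8 were higher. Efnb1, an ephrin that also binds EphB receptors, rose from 26.1 to 37.5 CPM in wild type to 37.8 to 61.3 CPM in null, ranges that did not overlap (0.70, SE 0.14, adjusted p = 0.00143, edgeR). Tnfrsf11a, which encodes RANK, was 16.8 to 19.7 CPM in wild type and 19.2 to 31.0 CPM in null (0.42, SE 0.11, adjusted p = 0.00786, edgeR). The osteoclast markers in the same cultures summed to 4135 to 5273 CPM in wild type and 4981 to 7714 CPM in null, with 5 of 10 higher and none at 0, and their part in this was not tested. The others were the ephrin receptor Ephb2 (0.44) and the semaphorin co-receptors Plxna1 (0.27) and Plxna4 (0.54). With the length and GC offset Efnb1 alone of the 5 remained past the threshold, and Plxna1 changed sign to -0.14. Ephb2 also lost its call in the fit of all 36 libraries (0.45, adjusted p = 0.182, edgeR) and on log2(TPM + 0.1) (0.35, adjusted p = 0.075, limma). Csf1r, the receptor for M-CSF and interleukin 34, differed by 0.05 (adjusted p = 0.52, edgeR), by -0.11 with the offset (adjusted p = 0.168, edgeR) and by 0.24 on log2(TPM + 0.1), where it passed (adjusted p = 0.00676, limma).

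In the RANK-L cultures 3 receptors were higher and 7 lower in null, of 10 tested, where 32.4% of all genes were higher and 33.1% lower. Tnfrsf11a was lower by 2.09 log2 units in null OC (SE 0.07, adjusted p = 9.7e-14, edgeR), at 26.3 to 34.3 CPM against 127 to 148 CPM in wild type. Its level was also lower in null BMM, at 27.2 to 35.2 CPM against 37.4 to 59.5 CPM in wild type, with no overlap. In the OC comparison Plxna4 was at -3.04 and Efnb1 at -1.56. Csf1r was 0.40 higher (SE 0.08, adjusted p = 0.000199, edgeR), and on log2(TPM + 0.1) it was 0.19 (limma, adjusted p = 0.0796).

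Of 13 other factors by which osteoblasts are known to act on osteoclasts or their precursors, 3 were higher and 2 lower in null OB, where 32.5% of all genes passed, and the median difference was 0.05. With the length and GC offset 1 was higher and 1 lower, and the median was -0.05. Cxcl12, a chemokine that holds precursors in marrow, had 174 to 240 CPM in wild type and 253 to 384 CPM in null, with no overlap (0.69, SE 0.10, adjusted p = 0.000243, edgeR). The reticular stroma markers, a list of 5 that includes Cxcl12, summed to 196 to 258 CPM in wild type and 290 to 410 CPM in null. Cxcl12 itself was the 1 of 5 called higher. It made up most of that sum, with means of 191 of 214 CPM in wild type and 309 of 339 CPM in null. The sum is therefore no measure separate from Cxcl12. The chondrocyte markers summed to 417 to 883 and 1063 to 2657 CPM, with 4 of 5 higher. No marker of either list was at 0, and their part was not tested. Sema3c, a secreted semaphorin, had 25.98 to 37.9 CPM in wild type and 14.5 to 17.0 CPM in null, also with no overlap (-1.03, SE 0.09, adjusted p = 3.26e-06, edgeR). Wnt5a (0.36) and Sema3b (0.28) were higher and Wnt16 (-0.81), a Wnt ligand that restrains osteoclast formation, was lower. The length and GC offset took the calls of Wnt5a, Sema3b and Wnt16, the fit of all 36 libraries those of Wnt5a and Sema3b, and voom and the replicate block that of Wnt16 (adjusted p = 0.0504, and 0.0671 at -0.77 with the block, edgeR). The call of Wnt16 was also lost without any one of wild-type OB replicates 3, 4, 5 and 6 or null OB replicates 1, 4, 5 and 6 (adjusted p up to 0.0952, edgeR), and that of Wnt5a without wild-type OB replicates 2, 5 or 6 or null OB replicate 5 (adjusted p up to 0.0637, edgeR).

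Membrane-bound RANKL can be shed by proteases, and of 3 such genes Adam10 was higher in null OB (0.28, adjusted p = 0.00421, edgeR), with 0.10 and no call under the length and GC offset, while Adam17 (-0.08) and Mmp14 (0.27) did not pass. With the offset none of the 3 was higher and Adam17 was lower (-0.26, adjusted p = 0.00135, edgeR), and on log2(TPM + 0.1) Adam17 was at 0.12 (adjusted p = 0.143, limma). Of 17 tested genes for receptors and transcription factors known to regulate Tnfsf11 or Tnfrsf11b, 3 were higher and 2 lower, with a median of 0.16, where 32.5% of all genes passed. With the offset 1 was higher and 3 lower and the median was -0.05, and on log2(TPM + 0.1) 8 were higher and 2 lower. Lifr, the receptor for leukaemia inhibitory factor, had 112 to 170 CPM in wild type and 217 to 442 CPM in null (1.09, SE 0.17, adjusted p = 0.000564, edgeR). Runx2, the transcription factor that sets osteoblast identity, was higher by 0.55 (adjusted p = 0.00163, edgeR), and Stat3, which acts below that receptor family, by 0.33 (adjusted p = 0.0211, edgeR). With the length and GC offset these were 0.33 (adjusted p = 0.0506, edgeR) and 0.20 (adjusted p = 0.162, edgeR). The prostaglandin E2 receptor gene Ptger2 was lower (-0.60, adjusted p = 0.00562, edgeR), as was the interleukin 11 receptor gene Il11ra1 (-0.38, adjusted p = 0.000269, edgeR).

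Genes whose log2 CPM ranked the 12 OB libraries most like a factor were sought among 12642 genes. For Tnfsf11 they were Stbd1 (rho 0.979), Mllt3 (0.972) and Layn (0.965). For Csf1 they were Fasn, the fatty acid synthase gene (0.993), Usp40 (0.965) and Zmat3 (0.965). Tnfrsf11b was closest to Entpd5 (0.916), and Il34 to Naaa (0.937). Sema3a was closest to Prmt7 (0.874), Efnb2 to Zbtb26 (0.895) and Ephb4 to Rabl6 (0.958). Each is the best of many genes over only 12 libraries and carries no test.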

How the data were processed

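Per the file headers, each deposited table lists transcripts with lengths, estimated counts and TPM values. The submitters' processing notes name kallisto, DESeq2 and the build GRCh38, with no role or version, although the identifiers are those of mouse transcripts. The authors' estimated counts and TPM values were summed per gene after matching 97.5% of 88198 transcripts to GENCODE M21 (GRCm38); unmatched transcripts held 0.629% to 0.974% of a library's counts and were left out. The deposited TPM values are per length and keep no depth. Summed estimated counts were rounded, filtered (filterByExpr), scaled (TMM) and tested with edgeR 4.0.16 in R 4.3.3 (quasi-likelihood F test, robust), with Benjamini-Hochberg adjustment over all genes tested and a threshold of 0.05. Printed CPM values use the TMM-scaled library sizes.

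Genotype comparisons used the 12 libraries of a culture, and interactions used 24. An SE was taken from the F statistic. The ratio was tested by exact permutation on log2 TPM with a pseudocount of 0.1. Intervals are 95%. Replicates differed by more than sampling noise (closest pair, chi-square 3.46 per gene). The test was run on simulated OB data with a common spread and no trend with transcript length. That check therefore cannot speak to the length trend of the OB comparison.

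Other settings tried were RLE in place of TMM, testing without the filter or with a minimum mean of 10 counts, DESeq2 1.42.0, voom with quality weights and limma 3.58.1 on log2(TPM + 0.1), the replicate number as a block, lowess offsets for length and GC (span 0.3), all 36 libraries, and leaving out each library. The comparisons of OC with BMM were added after seeing the data. The members, lists and named genes (members, list genes past the threshold in OB, and the 3 genes ranked most like each member) were chosen with earlier results of these data known. No batch or sequencing date is given in the sources used here. The Mir324 transcript itself was not analysed here.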

Additional observations from a re-analysis of the deposited data

Results flagged for a closer look

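Of 24 sets of 6 library values tested for a library far from the rest, 3 were picked out, where chance picks about 1 in 20. Csf1 in null OC replicate 6 was 22.8 CPM, and its gap to the next library took 0.661 of the group's range on the log2 scale, above the limit of 0.625 for 6 values. Efnb2 in wild-type OB replicate 6 was 4.03 CPM (0.756 of the range), with the other 5 libraries between 3.15 and 3.34 CPM. The Tnfsf11 to Tnfrsf11b ratio in wild-type OB replicate 1 was 0.136 (0.653 of the range), and the null OB group held 2 lower values.

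Some genotype effects on the factors were also called different between cultures by the interaction test of edgeR. Of all genes, 56.3% passed between OB and OC, 46.8% between OB and BMM and 51.4% between OC and BMM. The null OC libraries were low in osteoclast markers, so in the OC values genotype, culture and labelling cannot be told apart. The effect in OB minus that in OC was -3.17 for Csf1 (adjusted p = 3.18e-10), 6.06 for Efnb2 (adjusted p = 2.18e-11) and 5.72 for Il34 (adjusted p = 2.7e-11). Each null OC library held 0 to 4 counts of Efnb2 and of Il34. The same difference was -3.18 for Tnfrsf11b (adjusted p = 0.00587), -3.73 for Ephb4 (adjusted p = 0.00528) and 1.11 for Sema3a (adjusted p = 0.0152), all near the floor in OC. These 3 passed the filter only through OB, and their calls were lost on log2(TPM + 0.1). The effect in OB minus that in BMM was -2.80 for Tnfrsf11b (adjusted p = 0.000892), -4.17 for Ephb4 (adjusted p = 1.74e-05) and -1.11 for Sema3a (adjusted p = 0.0346), all near the floor in BMM. Here too they passed the filter only through OB, so nothing is read from their calls. The effect in OC minus that in BMM was 3.56 for Csf1 (adjusted p = 4.95e-08), -5.62 for Efnb2 (adjusted p = 1.32e-05) and -7.71 for Il34 (adjusted p = 0.000271). Efnb2 and Il34 passed the filter there only through wild-type OC and were near the floor in its other groups. The value for Il34 lost its call without null BMM replicate 5 (-4.73, adjusted p = 0.918).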

How the results depend on the processing

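Of 44 results on the 7 factors, 424 of 444 alternatives and 695 of 708 leave-outs kept the direction and the side of the threshold. For 23 list genes 198 of 230 and 264 of 276 did. The totals for the factors include wild-type OB against BMM and OC, where the filter fixed most directions. In null against wild-type OB, with 10 alternatives each, Csf1 kept 7, and Efnb2 and Ephb4 kept 8. Il34, Sema3a and Tnfrsf11b kept 9 there, and Tnfsf11 kept 10. Direction changed in null against wild-type OB for Il34 (0.026) and Sema3a (0.089) on log2(TPM + 0.1), for Adam17 (0.122) on that scale, for Ephb4 (-0.121 and -0.124), Plxna1 (-0.144 and -0.145) and Csf1r (-0.107 and -0.104) with the length and GC offset without and with the replicate block, and in BMM for Csf1 (0.063 with both offset and block, 0.032 without wild-type replicate 1, and -0.293 at the other end without replicate 3). The difference of the genotype effect on Il34 between OB and BMM, not called at -1.96 (adjusted p = 0.17, edgeR), was 1.06 without null BMM replicate 5 and -3.19 at the other end. The count of 4420 genes called in OB became 2289 with the offset, 1803 of them shared, and 1979 with the offset and the replicate block, 1584 shared. The offset removes a trend with length that the fitted values themselves show, and whether that trend is technical was not tested. The replicate block alone gave 4085 and changed no call of the 7 factors in OB. Replicate numbers did not pair OB libraries: same-number correlations ran from -0.119 to 0.149, and 2 of 6 libraries matched their own number best. The paired ratio test gave p = 0.188 (exact, 64 sign assignments). The 1628 genes called between null OC and null BMM became 1037 with voom, 1016 with offset and replicate block and 236 with 12 libraries, and ran from 810 to 2143 without single libraries. The cause was not tested. In the BMM and OC cultures 3 counts was the floor, which limits what can be said of Tnfsf11, Tnfrsf11b, Sema3a and Ephb4 there.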
